A study of Mus musculus with 47 samples.

Results

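Luminal progenitor cells (LP) of ovariectomized FVB mice were compared after 14 days of estradiol with progesterone (EP) and after a sham treatment. The comparison takes the 4 EP and 4 sham LP libraries of the study, chosen by cell fraction and treatment as labelled, and covers all genes measured. These are 8 of 47 libraries, and each came from a separate mouse. All animals lacked ovaries, so sham animals had no ovarian hormone, and estradiol and progesterone were given together, so that the effect of either alone cannot be told apart. Doses and ages are not given in the sources used here. The other LP libraries, from mice that also received telapristone acetate (TPA) or mifepristone (RU486), entered the fit for the estimate of spread and are not described. Cells were sorted by flow cytometry from mammary tissue, and complementary DNA was made from 1 to 2 ng of RNA with a full-length, low-input method.

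Luminal progenitors line the ducts, carry Kit and the transcription factor Elf5, and mostly lack the progesterone receptor. They are held to respond to progesterone through ligands such as RANKL (Tnfsf11), amphiregulin (Areg) and WNT4 made by receptor-bearing neighbours of the luminal mature fraction. Under these signals, and later prolactin, they divide and give rise to the milk-secreting alveoli of pregnancy. Fewer cells of a type and less RNA per cell cannot be told apart in these bulk libraries.

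Values are on the scale of FPKM (fragment numbers scaled for transcript length and sequencing depth) as deposited, rescaled here between libraries. From the values and not the labels, each gene was inferred to have been shifted and rescaled within a set of libraries before deposit. A gene's lowest value can therefore lie well above 0, and folds are then smaller than a true zero would give. A log2 fold is the EP minus sham difference of mean log2(value + 1), and a gene changed where limma's p, adjusted over all genes, was under 0.05. Of 11402 genes tested, 1852 rose and 1838 fell, 32.4% in all (16.2% higher and 16.1% lower). The median log2 fold over all tested genes was 0.00489. Values of the 2 groups did not overlap for 1558 genes with EP above (13.7%) and for 1664 with EP below (14.6%), and as deposited for 3264 (28.6%) and 717 (6.29%). Without rescaling, the median of all genes was 0.25, and 3945 genes rose while 949 fell, so the directions below are relative to that shift.

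Basal keratins set the fraction apart from the basal one in every library, while progenitor markers overlapped. Across the 16 LP libraries the basal keratin gene Krt5 ran from 8.44 to 10.7 and Krt14 from 64.0 to 88.4, against 32.2 to 560.3 and 246 to 3505 in the 6 basal (MSC) libraries of the same set. Krt8 was 791 to 3450 in LP and 313 to 919 in MSC libraries, and Kit was 12.7 to 87.3 in LP and 12.3 to 24.2 in MSC libraries, with the lowest LP value in EP mouse 327. Elf5 was 3.48 to 32.6 in LP and 2.59 to 6.14 in MSC libraries, Aldh1a3 6.003 to 89.6 and 5.97 to 10.8, Cd14 41.6 to 745 and 52.4 to 105, and Csn3 87.1 to 3436 and 88.5 to 340.1 in the same order. EP mouse 327 held the lowest LP values of Elf5, Cd14 and Csn3, those of Cd14 and Csn3 under the whole MSC range. The EP mice were not alike in luminal markers. Over 15 markers of luminal mature cells, the mean log2 level was 5.21, 3.11, 5.13 and 5.95 in EP mice 306, 311, 322 and 327, against 3.65, 3.97, 3.57 and 4.27 in sham mice 301, 305, 310 and 326. EP mouse 311 was the lowest of all 8 and the other EP mice were the 3 highest. Over 15 luminal progenitor markers the levels were 5.86, 6.80, 5.86 and 4.51 in EP mice and 7.46, 7.19, 7.61 and 7.23 in sham mice in the same order, lowest in EP mouse 327. All values below keep that order of mice.

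Genes of DNA replication rose in EP mice. Of 30 such genes 26 rose and 0 fell, with a median log2 fold of 1.25. The 4 that did not pass the test were Orc6, Gins4, Cdt1 and Pcna, and Pcna averaged 61.8 ± 19.2 in EP mice and 59.1 ± 9.55 in sham mice. EP mouse 311, the lowest in luminal mature markers, lay above every sham mouse for all 30 genes, as it did for 27.9% of all genes tested. Without its values, 28 of these 30 genes were tested. Uhrf1, which keeps DNA methylation through replication, was 17.3, 19.7, 13.3 and 9.20 in EP mice, against 1.24, 0.981, 1.06 and 1.06 in sham mice (log2 fold 2.88, SE 0.18, adjusted p 4.93e-08). Mcm2, a subunit of the replicative helicase, was 26.9, 32.8, 23.4 and 19.1 in EP mice, against 4.22, 5.02, 3.95 and 4.67 in sham mice (log2 fold 2.26, SE 0.14, adjusted p 4.93e-08). Mcm3, from the same helicase, was 24.6, 32.5, 19.4 and 16.4 in EP mice, against 4.52, 5.25, 4.23 and 4.99 in sham mice (log2 fold 2.04, SE 0.16, adjusted p 3.79e-07). In all 3 genes the lowest EP mouse was at least 3 times the highest sham mouse, and mouse 311 was the highest. The other helicase subunits also rose, Mcm5 by 2.46, Mcm6 by 2.23, Mcm7 by 1.78 and Mcm4 by 1.17, as did the helicase activators Cdc45 (1.91), Gins1 (1.91) and Gins2 (1.49). The licensing factors Cdc6 and Mcm10 were near 0 in sham mice, with 1.86 ± 0.619 in EP mice and 0.136 ± 0.0539 in sham mice for Cdc6. Genes of nucleotide synthesis moved the same way, 12 of 16 higher and 0 lower. Rrm2, the regulated subunit of ribonucleotide reductase, was 15.9, 18.3, 12.6 and 18.2 in EP mice, against 1.64, 1.30, 1.87 and 1.37 in sham mice (log2 fold 2.75, SE 0.22, adjusted p 5.44e-07). Thymidine kinase, Tk1, was 11.2, 10.6, 6.29 and 6.68 in EP mice, against 0.909, 1.18, 0.971 and 0.763 in sham mice (log2 fold 2.28, SE 0.20, adjusted p 1.21e-06). The 4 that did not pass were Atic, Umps, Paics and Impdh2, all of purine or pyrimidine supply. Without EP mouse 327, Orc6, Atic, Umps and Paics passed too, with log2 folds of 0.56, 0.54, 0.39 and 0.26.

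Mitotic genes rose without exception among those tested. All 33 tested of 35 rose, with a median log2 fold of 1.79, and in all 33 the 4 EP mice lay above the 4 sham mice. A gene high only in EP libraries could enter the test, so these counts favour genes high in EP mice. Ube2c, which marks mitotic proteins for destruction, was 37.2, 25.3, 25.4 and 22.8 in EP mice, against 2.33, 2.37, 2.57 and 1.96 in sham mice (log2 fold 3.09, SE 0.24, adjusted p 4.08e-07). Birc5, survivin of the chromosomal passenger complex, was 18.8, 14.4, 13.01 and 12.3 in EP mice, against 1.30, 0.723, 0.957 and 0.92 in sham mice (log2 fold 2.97, SE 0.19, adjusted p 6.38e-08). Stmn1, a tubulin-binding protein, was 147, 101, 125 and 69.6 in EP mice, against 14.96, 12.2, 12.8 and 12.2 in sham mice (log2 fold 2.94, SE 0.19, adjusted p 6.38e-08). These genes were highest in EP mouse 306, and no EP mouse came near the sham range. Cyclin B2, Ccnb2, was 16.8, 10.3, 8.64 and 8.999 in EP mice, against 0.89, 1.04, 0.902 and 0.811 in sham mice (log2 fold 2.63, SE 0.20, adjusted p 4.08e-07). Cdc20, the activator of the anaphase-promoting complex, averaged 17.6 ± 6.57 in EP mice and 2.34 ± 0.104 in sham mice. The mitotic kinases Cdk1, Aurkb, Plk1 and Aurka rose by 2.28, 2.23, 1.79 and 1.38. The condensin gene Ncaph was 9.79, 7.32, 5.12 and 5.83 in EP mice, against 1.20, 1.10, 1.23 and 0.874 in sham mice (log2 fold 1.90, SE 0.15, adjusted p 3.99e-07). The division marker Mki67 averaged 1.47 ± 0.291 in EP mice and 0.103 ± 0.0311 in sham mice, a low level in both groups. APITD1, which encodes a centromere protein, was 5.50, 5.20, 7.31 and 4.55 in EP mice, against 0.754, 0.734, 0.664 and 1.08 in sham mice (log2 fold 1.87, SE 0.13, adjusted p 1.52e-07).

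Promoters of replication and mitotic genes held cell cycle motifs in different shares. RefSeq windows from 250 bases before to 50 after the start (build GRCm38.p6) were found for 22 of the 26 replication genes that rose and 28 of the 33 mitotic genes. E2F motifs (TTTGGCGC or TTTCCCGC on either strand) stood in 10 of the 22 replication windows (45.5%), 1 of the 28 mitotic windows (3.57%) and 273 of 8725 windows of all tested genes (3.13%). The cell cycle homology region, CHR (TTTGAA or TTCGAA on either strand), stood in 6 of 22 (27.3%), 24 of 28 (85.7%) and 13.4% of windows in the same order. CCAAT on either strand stood in 14 of 22 (63.6%), 23 of 28 (82.1%) and 38.6%. A match is a string of letters and does not show binding. The windows of 2 genes of each group are shown 5′ to 3′ on the gene's strand because they carry an E2F or a CHR match, with every E2F, CHR and CCAAT match in capitals and no 2 matches sharing a base.
Mcm3, chr1:20820263-20820562 (minus strand): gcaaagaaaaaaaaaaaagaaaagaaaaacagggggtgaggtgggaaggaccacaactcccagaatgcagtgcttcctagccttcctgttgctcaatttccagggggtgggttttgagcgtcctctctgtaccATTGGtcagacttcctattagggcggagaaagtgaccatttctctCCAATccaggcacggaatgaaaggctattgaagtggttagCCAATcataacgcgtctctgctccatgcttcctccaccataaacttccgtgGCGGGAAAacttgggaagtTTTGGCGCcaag
Mcm6, chr1:128359656-128359955 (minus strand): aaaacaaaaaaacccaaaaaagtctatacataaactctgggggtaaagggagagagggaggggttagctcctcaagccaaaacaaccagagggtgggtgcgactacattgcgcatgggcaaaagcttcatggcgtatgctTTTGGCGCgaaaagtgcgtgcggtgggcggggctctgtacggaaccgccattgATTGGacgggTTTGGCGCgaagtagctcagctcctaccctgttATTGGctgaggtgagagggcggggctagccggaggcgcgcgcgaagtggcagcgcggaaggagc
Ccnb2, chr9:70421505-70421804 (minus strand): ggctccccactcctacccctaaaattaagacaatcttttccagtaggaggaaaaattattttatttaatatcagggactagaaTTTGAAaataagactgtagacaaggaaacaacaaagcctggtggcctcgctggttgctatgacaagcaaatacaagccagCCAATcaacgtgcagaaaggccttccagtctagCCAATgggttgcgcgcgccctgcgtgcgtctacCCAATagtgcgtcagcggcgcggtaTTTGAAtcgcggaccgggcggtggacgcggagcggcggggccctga
Cdc20, chr4:118437294-118437593 (minus strand): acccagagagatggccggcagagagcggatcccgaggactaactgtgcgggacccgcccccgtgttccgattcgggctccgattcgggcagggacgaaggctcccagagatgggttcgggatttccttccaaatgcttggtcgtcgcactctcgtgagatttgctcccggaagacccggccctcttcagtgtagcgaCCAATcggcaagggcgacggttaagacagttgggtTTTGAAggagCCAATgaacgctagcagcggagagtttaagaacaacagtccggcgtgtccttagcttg
Mcm3 and Mcm6 hold 2 E2F matches each and no CHR match. Ccnb2 holds 2 CHR matches and Cdc20 holds 1, each with several CCAAT boxes and no E2F match. The first listed windows of Birc5 and Uhrf1 hold neither an E2F nor a CHR match.

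Of 26 regulators of the cycle tested, 10 rose, 6 fell and 10 did not pass. Cyclin A2, Ccna2, was 14.9, 11.7, 8.30 and 7.23 in EP mice, against 1.02, 1.11, 1.04 and 1.03 in sham mice (log2 fold 2.44, SE 0.18, adjusted p 2.50e-07). The G1 kinase Cdk4 was 169, 154, 181 and 150.2 in EP mice, against 67.4, 62.6, 53.8 and 62.8 in sham mice (log2 fold 1.40, SE 0.11, adjusted p 5.71e-07). Mybl2, E2f1, E2f8 and Foxm1, transcription factors of the cycle, rose by 1.76, 1.56, 1.08 and 1.02, and cyclin E1 (Ccne1) rose by 1.38. Cyclin D1, Ccnd1, a known target of RANKL signalling, was 55.9, 98.2, 35.1 and 36.6 in EP mice, against 36.8, 49.6, 19.3 and 36.9 in sham mice. These ranges overlapped, and Ccnd1 did not pass the test (log2 fold 0.59, SE 0.31, adjusted p 0.161). Among genes that restrain the cycle, Rb1 was 12.8, 24.6, 8.92 and 6.98 in EP mice, against 41.5, 68.5, 57.7 and 52.5 in sham mice (log2 fold -2.09, SE 0.30, adjusted p 0.000115). The kinase inhibitor Cdkn1a averaged 54.03 ± 6.77 in EP mice and 145 ± 14.7 in sham mice, with every EP mouse below every sham mouse. Cdkn2c and the Rb relative Rbl2 fell by 0.84 and 0.75, and Rbl2 lost the call without rescaling (log2 fold -0.50, adjusted p 0.0716). Myc, a driver of growth, also fell, with 56.9 ± 23.1 in EP mice and 133 ± 15.3 in sham mice. Of 20 DNA repair genes 11 had a testable level, and of these 9 rose and 0 fell. Genes high only in EP libraries could be tested, so the share depends on the filter. Without EP mouse 311, 9 were tested and 7 rose. With no filter on low values 14 rose, and with at least 4 libraries at 5 or more 2 rose. Rad54l and Chek1 rose by 1.54 and 1.27. Of 14 chromatin genes 6 rose and 2 fell (6 and 0 without rescaling). The helicase Hells averaged 7.51 ± 2.68 in EP mice and 0.704 ± 0.0713 in sham mice, and of the Polycomb methyltransferase genes Ezh2 rose by 1.01 and Ezh1 fell by 0.77, with the call on Ezh1 lost without rescaling (log2 fold -0.50, adjusted p 0.0545). The histone gene Hist1h2ao was 56.4, 43.6, 45.1 and 24.5 in EP mice, against 2.44, 2.68, 3.58 and 2.68 in sham mice. It has near-identical copies that share reads, so this value is uncertain.

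**Figure D1:**
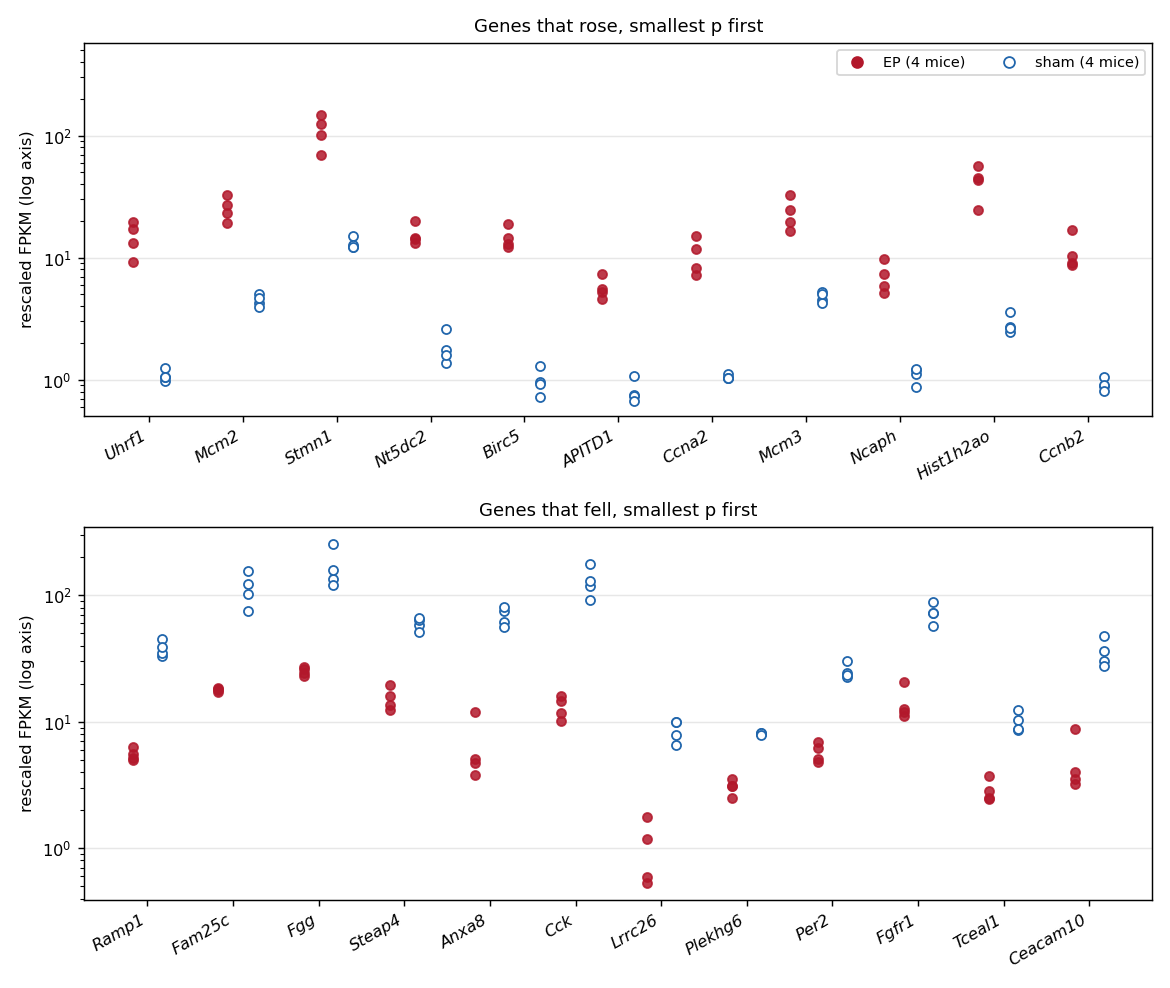
Rescaled FPKM (log axis) in each EP mouse (filled circles, left of each pair) and sham mouse (open circles, right) for 11 of the 12 genes that rose and the 12 that fell with the smallest p among those with a log2 fold of at least 1 and no overlap. The 2 groups are apart for every gene by this choice, and the EP values of Uhrf1 run from 9.20 to 19.7 against 0.981 to 1.24 in sham mice.

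Among the ligands, Areg, Rspo1, Tnfsf11 and Calca rose and Wnt4 did not pass the test, with large differences between EP mice. Of 16 genes of the progesterone paracrine axis 6 rose and 3 fell. Without EP mouse 311, 7 rose, and without any 1 of the other mice 4 or 5 rose. In the fits without 1 mouse 2 or 3 fell. Areg, an EGF receptor ligand, was 189, 41.7, 371 and 306 in EP mice, against 15.95, 12.6, 11.7 and 33.7 in sham mice (log2 fold 3.29, SE 0.57, adjusted p 0.000588). Every EP mouse lay above every sham mouse, with mouse 311 the closest to sham. Rspo1, which amplifies WNT signals, was 129, 21.1, 99.6 and 25.1 in EP mice, against 5.08, 6.21, 4.76 and 4.41 in sham mice (log2 fold 3.11, SE 0.45, adjusted p 0.000132), again apart in all mice. Tnfsf11, RANKL itself, was 19.8, 1.22, 8.63 and 55.2 in EP mice, against 0.902, 0.9, 0.901 and 0.886 in sham mice (log2 fold 2.73, SE 0.65, adjusted p 0.00503). In sham mice it stood at or next to its lowest value in the set, 0.886, and EP mouse 311 was just above it. Calca, the calcitonin and CGRP gene, was 104, 3.92, 72.2 and 245 in EP mice, against 3.74, 3.71, 3.61 and 3.62 in sham mice (log2 fold 3.56, SE 0.93, adjusted p 0.00866), with EP mouse 311 again next to the sham mice. Wnt4 was 21.7, 2.33, 21.4 and 25.8 in EP mice, against 4.99, 5.42, 3.16 and 6.99 in sham mice. EP mouse 311 was the lowest of all 8, the other EP mice were above every sham mouse, and the difference did not pass the test (log2 fold 1.29, SE 0.50, adjusted p 0.0601). Pgr, the progesterone receptor, was 5.77, 0.956, 4.16 and 7.16 in EP mice, against 0.824, 1.88, 0.972 and 1.68 in sham mice (log2 fold 1.08, SE 0.34, adjusted p 0.0225). EP mouse 311 was inside the sham range. Pgr no longer passed without any 1 of EP mice 306, 322 and 327 or sham mice 301 and 310, with log2 folds of 0.92, 1.05, 0.83, 0.97 and 1.01. Wnt4 did pass without EP mouse 311 (log2 fold 2.00, adjusted p 4.60e-06). Greb1, an estrogen receptor target, averaged 3.49 ± 2.28 in EP mice and 0.11 ± 0.00396 in sham mice and was highest in EP mouse 327. Esr1, the estrogen receptor, was 7.26, 2.85, 7.62 and 12.5 in EP mice, against 8.55, 11.6, 10.2 and 16.5 in sham mice, overlapping and not past the test (log2 fold -0.67, SE 0.32, adjusted p 0.119), though it fell by 0.93 without EP mouse 327 (adjusted p 0.0274).

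EP mouse 311, lowest in the luminal mature markers, was the lowest EP mouse for Areg, Rspo1, Tnfsf11, Calca, Wnt4, Pgr and Esr1. Rspo1 was nearly as low in EP mouse 327, which had the highest marker level. Of the 15 markers 6 rose and 2 fell (11 and 2 without EP mouse 311, 4 and 3 without EP mouse 327). Without any 1 of EP mice 306 and 322 and sham mice 301 and 310, 4 rose, and without sham mouse 305, 5 rose. The list holds Areg, Calca, Tnfsf11, Wnt4, Pgr and Esr1 themselves, so their agreement with it is partly built in. Tph1, a tryptophan hydroxylase and a marker outside the paracrine list, was 83.8, 3.57, 97.5 and 134 in EP mice, against 3.89, 3.83, 3.67 and 4.03 in sham mice, high in EP mice 306, 322 and 327 and at sham level in mouse 311. The summed level of the 15 markers was 247 to 1705 in EP mice and 420 to 721 in sham mice. Not all markers rose, and Cited1 and Aqp5 fell, with 41.2 ± 15.04 in EP mice and 152 ± 39.7 in sham mice for Aqp5. With the marker level as a term in the fit, the log2 fold was 2.11 for Areg, 2.75 for Rspo1, 1.36 for Tnfsf11 and 1.54 for Calca, all still past the test, although Areg, Tnfsf11 and Calca are themselves among the 15 markers, while Pgr had 0.32 and did not pass. The part of luminal mature cells in these results was not tested.

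**Figure D2:**
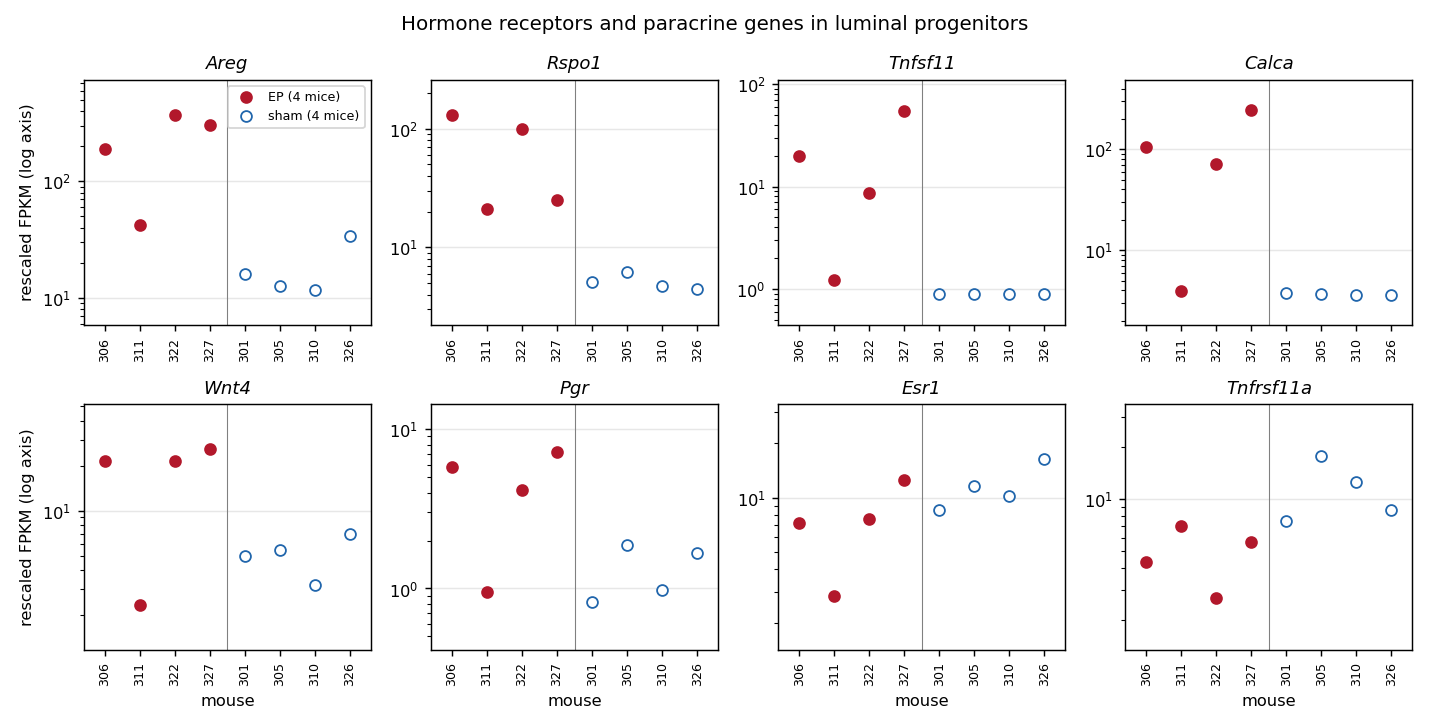
Rescaled FPKM (log axes) of 8 hormone receptors, ligands and a ligand receptor in each EP mouse (filled, left) and sham mouse (open, right), with mouse numbers on the axis. EP mouse 311 lies nearest to or inside the sham range for Areg, Tnfsf11, Calca and Pgr, where the other EP mice are higher.

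Receptors for these ligands differed among themselves. Tnfrsf11a, the receptor RANK, was 4.33, 7.05, 2.69 and 5.63 in EP mice, against 7.48, 17.7, 12.5 and 8.70 in sham mice (log2 fold -1.08, SE 0.27, adjusted p 0.00598), and all EP mice were below all sham mice. Tnfrsf11b, the decoy receptor, rose by 1.09 at a low level, and lost the call in 6 of 8 fits without 1 mouse, with log2 folds of 0.69 to 1.13. Lgr5, a receptor for R-spondins, was 0.397, 0.436, 0.254 and 0.254 in EP mice, against 4.45, 1.59, 2.17 and 2.22 in sham mice (log2 fold -1.38, SE 0.20, adjusted p 0.000128), while Lgr4 averaged 1.59 ± 0.297 in EP mice and 1.59 ± 0.352 in sham mice and did not pass. Ramp1, a partner of the receptor for the Calca product CGRP, was 4.99, 6.37, 5.21 and 5.52 in EP mice, against 44.9, 33.1, 35.04 and 39.1 in sham mice and had one of the smallest p (log2 fold -2.58, SE 0.15, adjusted p 4.93e-08). In the EGF family 2 of 13 genes rose and 4 fell (4 and 4 without rescaling). The ligand Epgn was 19.7, 4.46, 28.01 and 25.5 in EP mice, against 1.53, 3.07, 1.56 and 1.15 in sham mice (log2 fold 2.65, SE 0.42, adjusted p 0.000302), the pattern of Areg with EP mouse 311 nearest to sham. The receptor Egfr fell by 1.24, the ligand Hbegf by 1.75, and the feedback inhibitors Errfi1 and Lrig1 by 2.29 and 1.14. Erbb2 and Erbb3 did not pass. The Wnt genes were divided, with 5 of 22 higher and 5 lower (6 and 4 without rescaling). The transcription factor Tcf7 was 3.41, 4.22, 4.06 and 5.48 in EP mice, against 0.806, 1.16, 1.06 and 1.11 in sham mice (log2 fold 1.37, SE 0.21, adjusted p 0.00019), and the receptor turnover enzyme Znrf3 rose by 0.67. The ligands Wnt7b and Wnt5b fell by 1.68 and 1.24, and the secreted inhibitor Sfrp1 by 1.02. Fgfr1, the receptor for fibroblast growth factors, was 11.1, 20.7, 12.02 and 12.5 in EP mice, against 88.02, 57.2, 73.1 and 72.9 in sham mice (log2 fold -2.32, SE 0.20, adjusted p 7.42e-07).

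In the prolactin and STAT5 axis 3 of 12 genes rose and 5 fell (4 and 2 without rescaling). Without any 1 of EP mice 306, 322 and 327 and sham mice 301, 310 and 326, 2 or 3 fell. Stat5a, the transcription factor that prolactin activates, was 79.5, 63.9, 62.3 and 68.6 in EP mice, against 17.1, 23.6, 18.5 and 20.1 in sham mice (log2 fold 1.74, SE 0.19, adjusted p 7.43e-06), alike in all 4 EP mice. Socs2, a target and brake of STAT5, averaged 30.2 ± 21.6 in EP mice and 7.29 ± 0.508 in sham mice, and its relative Cish fell, with 13.03 ± 3.97 in EP mice and 29.98 ± 2.27 in sham mice. Prlr, the prolactin receptor, was 247, 41.1, 212 and 400.0 in EP mice, against 106, 145, 96.03 and 177 in sham mice. EP mouse 311 was the lowest of 8 and the gene did not pass (log2 fold 0.43, SE 0.49, adjusted p 0.545), but it rose by 1.11 without mouse 311 (adjusted p 0.00277) and fell by 0.69 with the luminal mature level as a term (adjusted p 0.000976). Prlr is itself 1 of the 15 markers averaged in that term. In that fit rises of some markers are set off by falls of others, so this fall follows partly from how the term is built. Elf5 was 12.7, 20.3, 12.3 and 3.48 in EP mice, against 21.1, 24.97, 32.6 and 26.1 in sham mice (log2 fold -1.23, SE 0.34, adjusted p 0.0118), the EP mice all below the sham mice and mouse 327 lowest, and the log2 fold without mouse 327 was -0.77. Of 18 Notch genes 2 rose and 4 fell (3 and 2 without rescaling), and 0 or 1 rose without any 1 of the 8 mice. The share changed, 33.3%, was near the 32.4% of all genes tested. Hey1, a Notch target, was 6.53, 69.1, 6.29 and 5.06 in EP mice, against 34.1, 132, 96.2 and 55.9 in sham mice (log2 fold -2.53, SE 0.67, adjusted p 0.00993), low in EP mice 306, 322 and 327 while mouse 311 lay within the sham range. Notch1 and Notch3 did not pass. Of 11 IGF genes 0 rose and 3 fell (1 without sham mouse 310, 1 without rescaling), 27.3% of the list against 32.4% of all genes tested. Igfbp5, a binding protein of insulin-like growth factors, was 56.7, 258, 43.8 and 33.4 in EP mice, against 336, 446, 562 and 371 in sham mice (log2 fold -2.60, SE 0.50, adjusted p 0.00121), with mouse 311 closest to sham.

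Of 13 milk protein genes 0 rose and 5 fell (1 and 5 without EP mouse 327), with a median log2 fold of -1.22. Csn3, kappa casein, was 138, 935, 167 and 87.1 in EP mice, against 2740.0, 2401, 3436 and 2793 in sham mice (log2 fold -3.75, SE 0.49, adjusted p 5.43e-05). Lalba, the alpha-lactalbumin of lactose synthesis, was 13.8, 167, 25.2 and 14.7 in EP mice, against 359, 699, 663 and 344 in sham mice (log2 fold -3.94, SE 0.62, adjusted p 0.000274). Spp1, osteopontin, was 62.4, 534, 86.9 and 89.8 in EP mice, against 2578, 1913, 2819 and 2165 in sham mice (log2 fold -4.19, SE 0.53, adjusted p 4.45e-05). In all 3 the groups were apart, and EP mouse 311 was the highest EP mouse. Ltf, lactoferrin, was 194, 177, 238 and 109.8 in EP mice, against 3502, 1297, 2485 and 1499.9 in sham mice (log2 fold -3.54, SE 0.36, adjusted p 4.10e-06), without that exception. Muc1 also fell. The caseins of late pregnancy did not pass, and Csn2 was 78.2, 44.2, 31.7 and 30.5 in EP mice, against 10.2, 93.3, 54.95 and 13.6 in sham mice, overlapping widely (log2 fold 0.52, SE 0.65, adjusted p 0.584). Wap, whey acidic protein, was 0.54, 1.61, 1.94 and 0.2 in EP mice, against 1.89, 0.893, 5.48 and 1.57 in sham mice (log2 fold -0.67, SE 0.37, adjusted p 0.179). Trf, transferrin, averaged 3086 ± 3218 in EP mice and 9589 ± 1432 in sham mice with no overlap, yet its adjusted p was 0.217. With only EP and sham libraries in the fit Trf passed (log2 fold -2.20, adjusted p 0.0353). Of 13 genes of milk fat and secretion 7 fell and 1 (Lpl) rose (2 without EP mouse 322, and 2 without rescaling). Btn1a1, butyrophilin of the milk fat globule membrane, was 12.8, 43.1, 13.05 and 8.07 in EP mice, against 205, 223, 184 and 161 in sham mice (log2 fold -3.53, SE 0.38, adjusted p 9.12e-06). Xdh, Plin2 and Mfge8, also of the milk fat globule, averaged 6.91 ± 3.73 in EP mice and 40.5 ± 27.9 in sham mice, 116 ± 61.5 in EP mice and 379.6 ± 49 in sham mice and 793 ± 359 in EP mice and 2869 ± 747 in sham mice.

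Markers of the progenitor fraction itself fell in 11 of 15 cases and rose in 0, with a median log2 fold of -1.53. The list holds Csn3, Mfge8, Cd14, Lcn2, Hey1 and Elf5. These are also named with milk, defence, Notch or prolactin genes, so the counts are not independent. Kit was 54.6, 54.5, 29.2 and 12.7 in EP mice, against 62.2, 74.6, 87.3 and 69.4 in sham mice (log2 fold -1.14, SE 0.38, adjusted p 0.0305). EP mice 306 and 311 lay just under the lowest sham mouse and mouse 327 far lower. Kit lost the call without any 1 of EP mice 322 and 327 and sham mice 305, 310 and 326, with log2 folds from -1.16 to -0.70, and without rescaling (-0.85). Tspan8 was 14.2, 47.5, 17.9 and 5.34 in EP mice, against 155, 93.6, 102 and 127 in sham mice (log2 fold -2.77, SE 0.41, adjusted p 0.000147). Aldh1a3, a retinaldehyde dehydrogenase, averaged 20.96 ± 10.9 in EP mice and 56.8 ± 21.9 in sham mice, and Plet1 averaged 461 ± 381 in EP mice and 3363 ± 1419.5 in sham mice. Ehf, Itga2, Gabrp and Wfdc18 did not pass. Wfdc18 went the other way, and rose by 1.20 without EP mouse 327 (adjusted p 0.0128) and by 1.38 with library weights (adjusted p 0.00424). Itga2 rose by 0.75 with the luminal mature level as a term (adjusted p 0.0335). With the luminal mature level as a term, 7 of these 15 fell and 1 rose, Kit had a log2 fold of -0.66 and Elf5 of -0.69, neither past the test, and Csn3 had -2.70. The general luminal keratins were also lower, Krt18 with 1424 ± 329.8 in EP mice and 3455 ± 1028 in sham mice (log2 fold -1.26, SE 0.26, adjusted p 0.0019) and Krt8 with 1277 ± 374 in EP mice and 2481 ± 679 in sham mice (log2 fold -0.96, SE 0.30, adjusted p 0.0219). After quantile normalization Krt18 had a log2 fold of -0.44 and lost the call (adjusted p 0.0527). Elf3, an epithelial transcription factor, was 32.7, 38.3, 40.9 and 28.3 in EP mice, against 226, 98, 164 and 152 in sham mice (log2 fold -2.11, SE 0.21, adjusted p 4.02e-06). Krt8 lost the call without EP mouse 306 or sham mouse 301 (log2 folds -0.91 and -0.79), without rescaling (-0.66) and after quantile normalization (-0.17). Of 15 luminal keratin and junction genes 7 fell and 2 rose (3 and 4 without rescaling), and Krt19 and Cldn7 did not pass. The number that rose was 4 without EP mouse 311, 1 without EP mouse 322 and 0 without any 1 of the other 6 mice, and 4 fell without sham mouse 301.

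**Figure D3:**
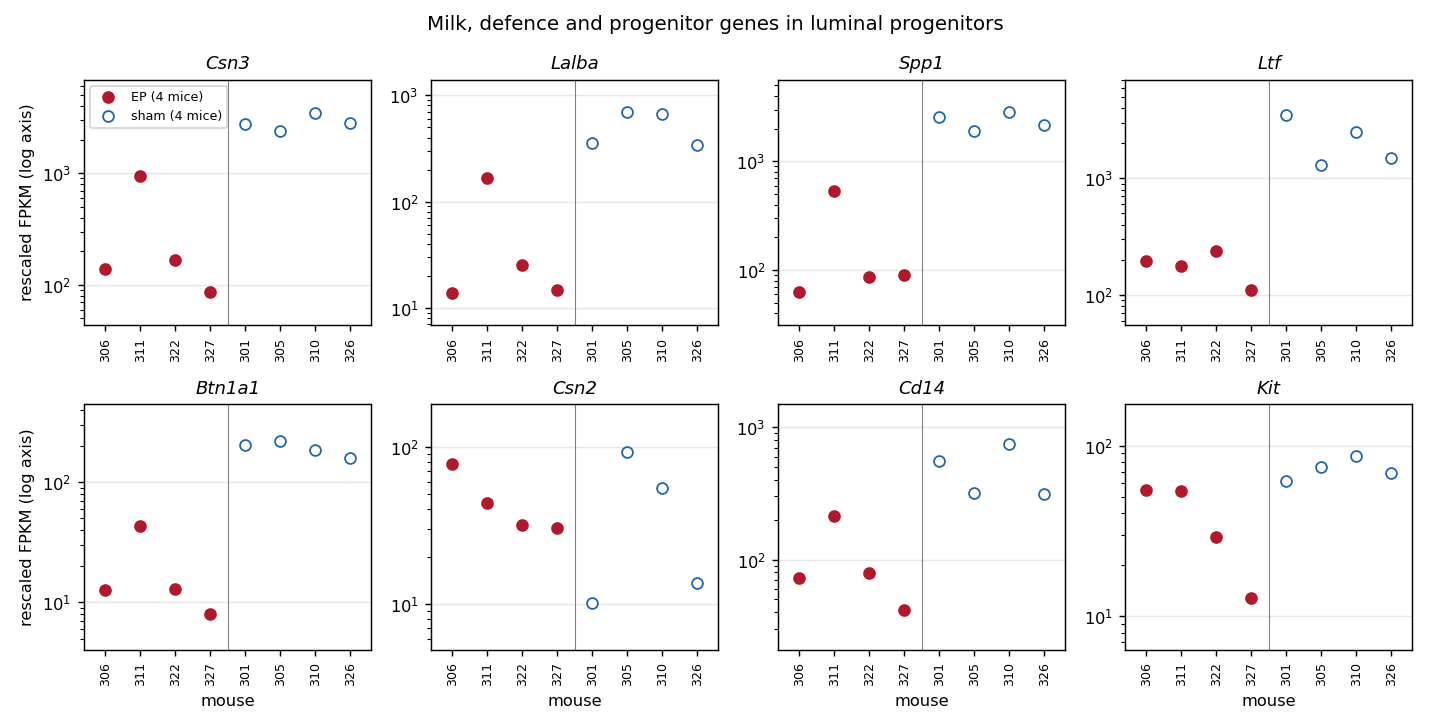
Rescaled FPKM (log axes) of 8 milk, defence and progenitor genes in each EP mouse (filled, left) and sham mouse (open, right), with mouse numbers on the axis. EP mice lie below all sham mice for Csn3, Lalba, Spp1, Ltf, Btn1a1, Cd14 and Kit, and the groups overlap for Csn2.

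Innate defence genes fell in 10 of 23 cases and rose in 3. Cd14, a receptor for bacterial lipopolysaccharide, was 72.1, 214, 79.7 and 41.6 in EP mice, against 557, 321, 745 and 311 in sham mice (log2 fold -2.40, SE 0.39, adjusted p 0.000338). Lipocalin 2, Lcn2, averaged 572 ± 522 in EP mice and 2764 ± 988 in sham mice, and the toll-like receptor genes Tlr2 and Tlr4 fell by 1.20 and 1.02. The chemokine Cxcl1 averaged 106 ± 66.7 in EP mice and 422 ± 165 in sham mice. Ceruloplasmin, Cp, was 42.4, 94.1, 32.96 and 34.7 in EP mice, against 238, 194, 269.9 and 219.6 in sham mice (log2 fold -2.28, SE 0.27, adjusted p 1.85e-05). Haptoglobin, Hp, went the other way, 626, 812, 645 and 436 in EP mice, against 206, 188, 169 and 203 in sham mice (log2 fold 1.68, SE 0.17, adjusted p 4.30e-06), above every sham mouse in all EP mice, 311 included. The chemokine Cxcl15 was 102, 13.2, 106 and 209 in EP mice, against 6.01, 6.51, 6.72 and 7.55 in sham mice (log2 fold 3.30, SE 0.60, adjusted p 0.000847), with EP mouse 311 nearest to sham. Of 23 interferon response genes 3 rose and 5 fell (4 and 2 without rescaling, and 1 higher without any 1 of EP mouse 327 and sham mice 301 and 310), and Isg15, Ifit1 and Irf7 did not pass. Changed genes made up 34.8% of this list, near the 32.4% of all genes tested. Bst2, a membrane protein that tethers viruses, averaged 84.1 ± 26.2 in EP mice and 35.6 ± 8.49 in sham mice.

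Of 19 clock genes 13 fell and 0 rose (13 and 1 without rescaling), with a median log2 fold of -1.46. Per2, a repressor of the clock, was 4.81, 6.25, 6.90 and 5.08 in EP mice, against 24.1, 22.5, 23.5 and 29.97 in sham mice (log2 fold -1.95, SE 0.16, adjusted p 5.71e-07). Per1, also a target of steroid receptors, was 4.13, 4.48, 3.10 and 3.62 in EP mice, against 12.3, 8.86, 16.6 and 12 in sham mice (log2 fold -1.46, SE 0.20, adjusted p 8.58e-05). Bhlhe40 was 60.6, 84.1, 56.1 and 66.6 in EP mice, against 181, 205, 215 and 162 in sham mice (log2 fold -1.50, SE 0.15, adjusted p 4.02e-06). Dbp and Nr1d1, outputs of the clock, averaged 3.07 ± 1.17 in EP mice and 20.6 ± 8.17 in sham mice and 19.02 ± 9.31 in EP mice and 76.2 ± 21.3 in sham mice. Rora averaged 2.45 ± 0.961 in EP mice and 8.59 ± 0.931 in sham mice, and Cry1 and Cry2 fell by 1.33 and 1.48, Cry1 with the call lost without any 1 of EP mice 306 and 327 and sham mice 301 and 310 (log2 folds -1.29 to -1.03). The activators Arntl, Clock and Npas2 did not pass, and Arntl averaged 5.66 ± 2.74 in EP mice and 5.50 ± 1.20 in sham mice. Times of tissue collection are not given in the sources used here, so time of day and treatment cannot be told apart. With the luminal mature level as a term, 12 of 19 fell and 0 rose.

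Immediate early and stress genes fell in 16 of 24 cases and rose in 0, with a median log2 fold of -1.15. Without rescaling 12 fell, with a median of -0.85. Leaving out 1 mouse gave 11 (without sham mouse 305) to 18 (without sham mouse 301) that fell. Jund was 112, 146, 134 and 107 in EP mice, against 330.0, 448, 374 and 374 in sham mice (log2 fold -1.61, SE 0.18, adjusted p 8.82e-06). Junb was 207, 382, 265 and 229 in EP mice, against 497, 1074, 705 and 708 in sham mice (log2 fold -1.45, SE 0.24, adjusted p 0.0003). Atf3 averaged 269 ± 30.2 in EP mice and 914 ± 400.2 in sham mice and Egr1 171 ± 43.9 in EP mice and 477 ± 172 in sham mice. Fos averaged 662 ± 182 in EP mice and 1585 ± 676 in sham mice (log2 fold -1.20, SE 0.36, adjusted p 0.0175), and lost the call without EP mouse 306 or sham mouse 305 or 326 (log2 folds -1.08 to -0.97), without rescaling (-0.90) and after quantile normalization (-0.67). Hspa8, a constitutive heat shock protein, averaged 663 ± 177 in EP mice and 1338 ± 268 in sham mice and lost the call after quantile normalization (log2 fold -0.46, adjusted p 0.119), while Dusp1, Klf4 and Hsp90aa1 did not pass. These genes are also known to respond to tissue dissociation, and handling times are not given, so that handling and treatment cannot be told apart. Of 14 targets shared by glucocorticoid and progesterone receptors 2 rose and 4 fell (5 and 4 without rescaling). The share changed was 42.9%, against 32.4% of all genes tested. Without EP mouse 311, 5 rose, without EP mouse 306 or 327 0 rose, and without EP mouse 322 or sham mouse 301 or 326 1 rose. Hsd11b2, which inactivates glucocorticoids, was 1.86, 0.632, 2.54 and 4.66 in EP mice, against 0.0561, 0.136, 0.0985 and 0.0316 in sham mice (log2 fold 1.53, SE 0.25, adjusted p 0.000296). Cebpd and Cebpb fell by 2.03 and 2.13, Klf9 by 1.01, and Sgk1 and Tsc22d3 did not pass. Of 19 lysosome and involution genes 2 rose and 7 fell. Stat3, a factor of involution, was 88.4, 121, 93.4 and 75.3 in EP mice, against 199, 157, 188 and 155 in sham mice (log2 fold -0.89, SE 0.14, adjusted p 0.000246), and the survival factor Mcl1 averaged 72.5 ± 24.5 in EP mice and 205 ± 30.9 in sham mice.

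**Figure D4:**
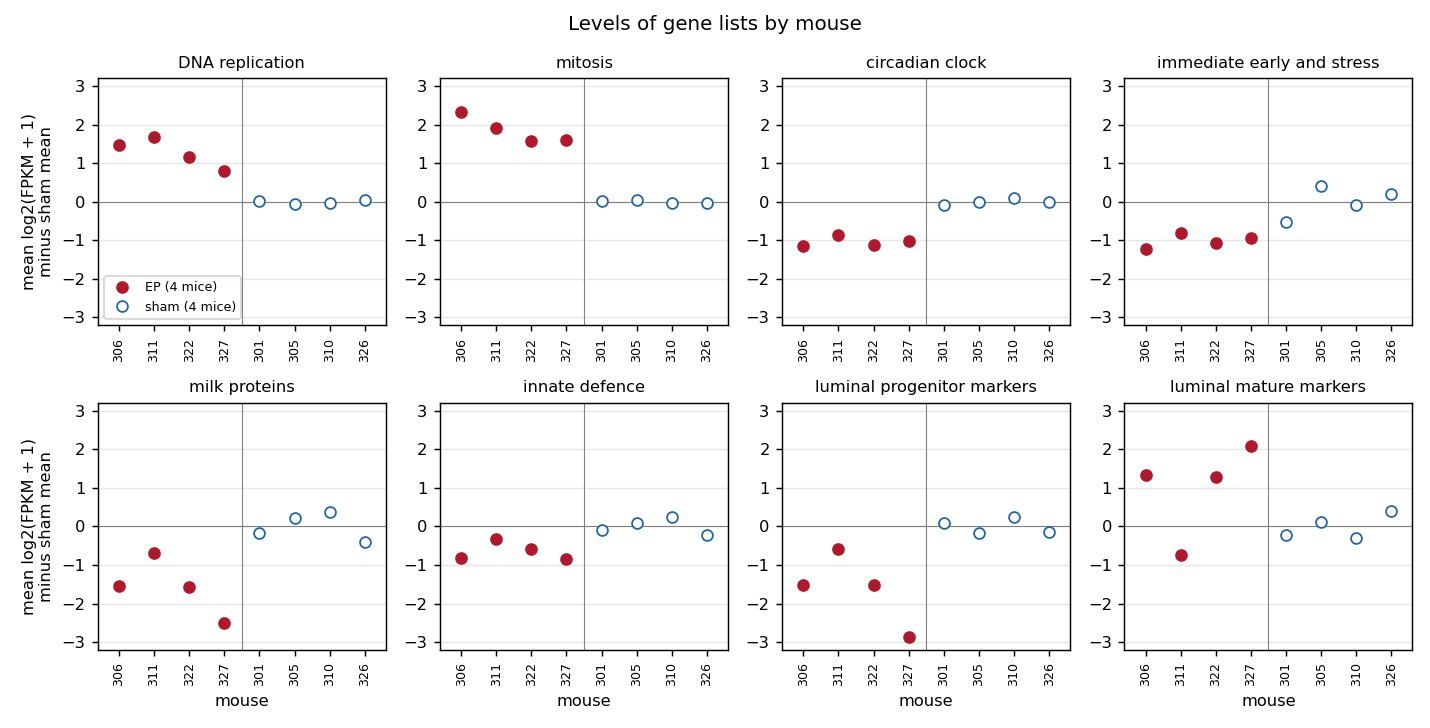
Mean log2(rescaled FPKM + 1) over the tested genes of 8 lists in each EP mouse (filled, left) and sham mouse (open, right), minus the mean of the 4 sham mice, with mouse numbers on the axis. The EP mice stand apart from sham in replication, mitosis and clock genes, while in luminal mature markers EP mouse 311 is the lowest of 8.

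Metabolic genes changed in both directions. Of 13 serine and folate genes 8 rose and 2 fell (1 without sham mouse 305 or 310, and 1 without rescaling). Phgdh, the first enzyme of serine synthesis, was 29.8, 14.03, 34.97 and 43.4 in EP mice, against 6.20, 7.39, 5.15 and 10.1 in sham mice (log2 fold 1.87, SE 0.28, adjusted p 0.00018), with EP mouse 311 lowest among EP mice. Psat1, the next enzyme, was 29.5, 40.8, 33.3 and 11.04 in EP mice, against 7.20, 5.44, 4.86 and 6.53 in sham mice (log2 fold 1.96, SE 0.30, adjusted p 0.000206), with EP mouse 327 lowest. The mitochondrial folate enzymes Shmt2 and Mthfd2 rose by 0.83 and 1.12. Slc3a2, the heavy chain of amino acid exchangers, averaged 98.4 ± 20.9 in EP mice and 319 ± 69.6 in sham mice. Of 16 glycolysis genes 1 rose (Pgam1) and 5 fell (7 and 4 without rescaling, 2 higher without EP mouse 311), and the glucose transporter Slc2a1 was 30.5, 51.7, 44.2 and 45.8 in EP mice, against 199, 95.97, 146 and 96.4 in sham mice (log2 fold -1.58, SE 0.30, adjusted p 0.00113). Of 15 fatty acid genes 3 rose and 4 fell (5 and 2 without rescaling). Fasn, fatty acid synthase, was 23.2, 26.9, 22.1 and 23.4 in EP mice, against 11.5, 10.1, 10.4 and 10.4 in sham mice (log2 fold 1.10, SE 0.15, adjusted p 4.54e-05), and Scd2 averaged 26.95 ± 12.4 in EP mice and 5.01 ± 2.05 in sham mice, while malic enzyme Me1 averaged 24.7 ± 11.1 in EP mice and 72.2 ± 6.85 in sham mice. Of 18 cholesterol genes 4 rose and 4 fell (6 and 2 without rescaling, 1 lower without EP mouse 306 and 2 lower without any 1 of EP mouse 327 and sham mice 301 and 310), and Sqle did not pass. Of 22 ribosome biogenesis genes 5 rose and 0 fell (13 and 0 without rescaling, 8 and 0 without EP mouse 327), among them Bop1 and Dkc1, by 0.84 and 0.77. Changed genes made up 37.5% of the glycolysis list and 22.7% of the ribosome biogenesis list, against 32.4% of all genes tested. Of 23 genes of the unfolded protein response 5 rose and 6 fell (12 and 4 without rescaling, and 3 higher without any 1 of EP mice 322 and 327 and sham mice 310 and 326). Ern1, a sensor of unfolded protein, rose by 1.31, and the transcription factors Ddit3 and Atf4 fell by 1.39 and 1.14.

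**Figure D5:**
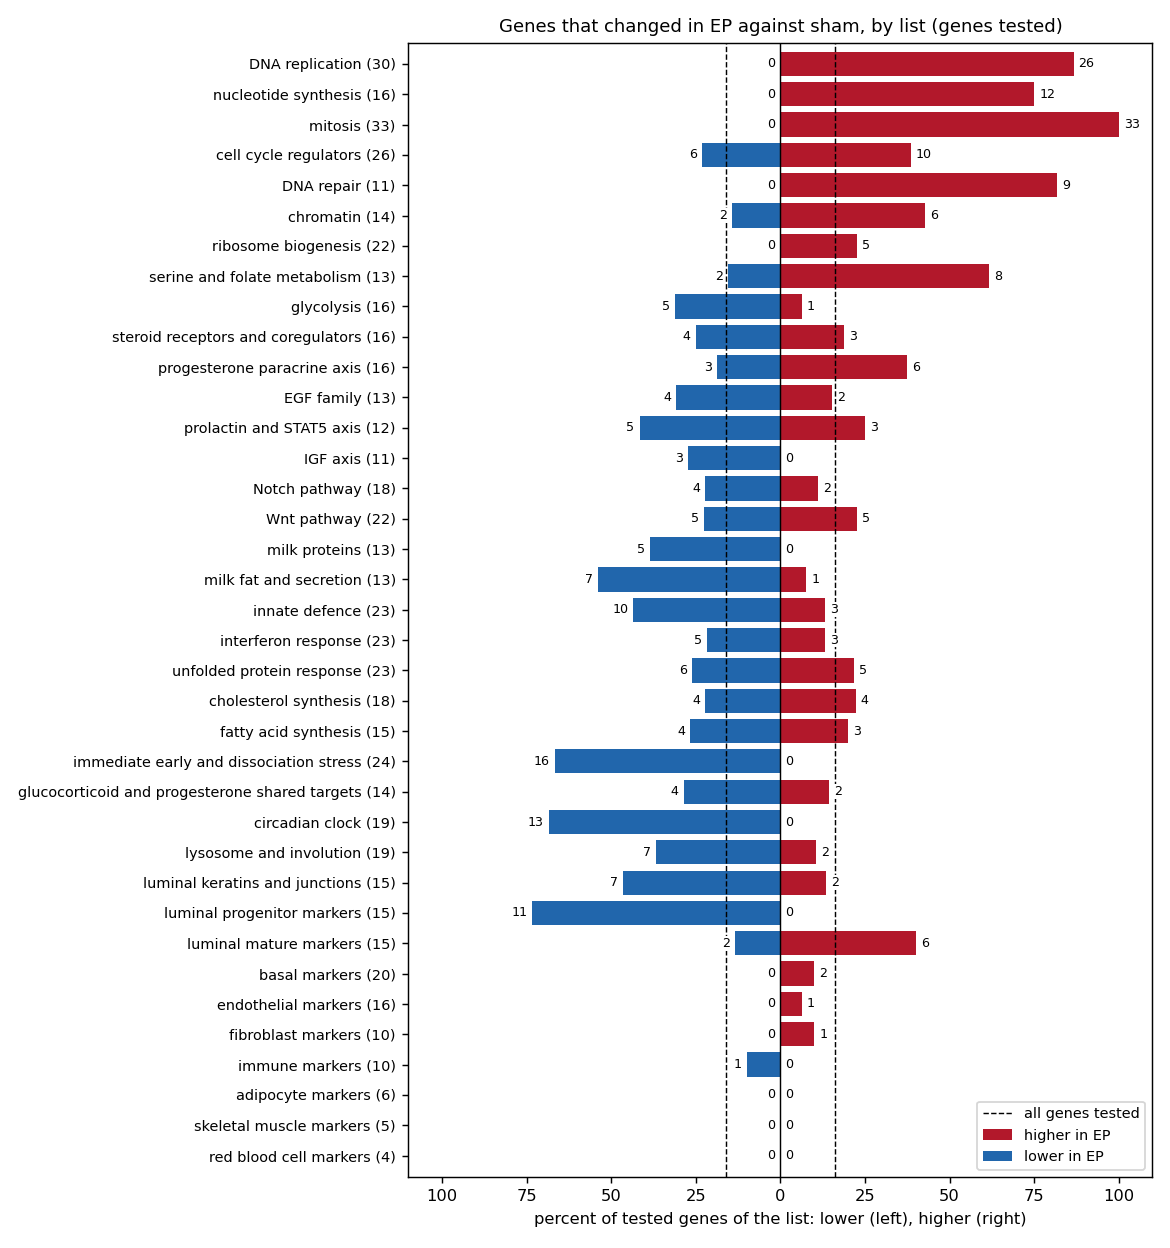
Share of the tested genes of each list that rose (right of 0) and fell (left of 0) in EP against sham mice, in percent, with the numbers of genes beside the bars. Dashed lines give the shares of all 11402 genes tested, 16.2% higher and 16.1% lower, and all 33 mitotic genes rose.

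Other genes with the smallest p or the largest folds were mostly outside the lists. Fam25c was 17.2, 17.8, 18.1 and 18.5 in EP mice, against 123, 102, 74.9 and 155 in sham mice (log2 fold -2.55, SE 0.16, adjusted p 4.93e-08). Fgg, the fibrinogen gamma chain, was 22.9, 26.2, 26.99 and 24.4 in EP mice, against 133, 158, 121 and 256 in sham mice (log2 fold -2.62, SE 0.17, adjusted p 6.38e-08). Anxa8, an annexin, was 4.70, 11.95, 5.03 and 3.77 in EP mice, against 75.7, 61.3, 80.7 and 56.1 in sham mice (log2 fold -3.34, SE 0.25, adjusted p 3.79e-07), and Cck, cholecystokinin, was 10.1, 14.7, 11.8 and 15.9 in EP mice, against 176, 118, 92.2 and 131 in sham mice (log2 fold -3.19, SE 0.25, adjusted p 5.44e-07). In these 4 genes the EP mice were near the gene's lowest value in the set or a few times it. The metalloreductase Steap4, the channel subunit Lrrc26, Plekhg6, Tceal1 and Ceacam10 fell by 1.91, 2.27, 1.16, 1.51 and 2.69, and Nt5dc2 rose by 2.54. Of genes with large folds, Upk3a, a uroplakin, was 2.01, 2.005, 2.02 and 2.36 in EP mice, against 62.4, 75.5, 13.5 and 103 in sham mice (log2 fold -4.07, SE 0.41, adjusted p 4.90e-06). Amtn averaged 1.60 ± 1.06 in EP mice and 35.9 ± 16.9 in sham mice, and Chil1, a chitinase-like protein, averaged 44.02 ± 48.7 in EP mice and 398 ± 199 in sham mice. Gpx3, the extracellular glutathione peroxidase, was 5003, 657, 5080.0 and 9013 in EP mice, against 228, 233, 225 and 225 in sham mice (log2 fold 3.94, SE 0.60, adjusted p 0.000218). Pcp4, a calmodulin-binding protein, was 642, 36.8, 582 and 976 in EP mice, against 21.5, 21.6, 20.9 and 19.4 in sham mice (log2 fold 3.97, SE 0.73, adjusted p 0.000924). The defensin Defb1 was 146, 10.9, 116 and 167 in EP mice, against 4.26, 4.18, 4.10 and 4.01 in sham mice (log2 fold 3.90, SE 0.61, adjusted p 0.000277). Plac8 and the folate receptor gene Folr2 rose by 3.90 and 3.34. In these 5 genes EP mice 306, 322 and 327 were far above mouse 311, the order seen in the luminal mature markers, and mouse 311 was still above all sham mice.

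Of 20 basal markers 2 rose (Cdh3 and Trp63) and 0 fell (5 and 0 without rescaling, 0 and 0 with only EP and sham libraries in the fit, 1 rose without EP mouse 306, 322 or 327, and 1 fell without mouse 327), and their summed level was 395 to 562 in EP mice and 400 to 602 in sham mice. Krt5 was 11.3, 10.2, 11.1 and 12.7 in EP mice, against 10.2, 10.4, 10.3 and 10.4 in sham mice as deposited, so its small negative log2 fold after rescaling (log2 fold -0.16, SE 0.09, adjusted p 0.19) gives no direction. Of 16 endothelial markers 1 rose (2 without rescaling), Vwf (which lost the call in 5 of 8 fits without 1 mouse, with a log2 fold of 0.39 without EP mouse 327), with sums of 219 to 875 in EP mice and 270 to 508 in sham mice. Of 10 fibroblast markers 1 rose (Dcn), with sums of 115 to 225 in EP mice and 29.7 to 168 in sham mice. Of 10 immune markers 1 fell (Cd68), and none of the 6 adipocyte, 5 skeletal muscle or 4 red blood cell markers passed the test. EP mouse 327 had the highest endothelial, fibroblast and muscle sums, the last at 190 against 4.14 to 9.01 in the other EP mice and 4.67 to 19.6 in sham mice. Their part in the results was not tested. Without EP mouse 327, 26 replication genes, 32 mitotic genes and 0 clock genes rose, and 12 clock genes and 10 progenitor markers fell, with 1 progenitor marker higher.

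EP mouse 311 was compared with the sham mice over every tested member of a list, called or not. It lay above every sham mouse for 30 of 30 replication genes, 33 of 33 mitotic genes and 3 of 15 luminal mature markers, against 27.9% of all tested genes. Without its values, 28 replication and 32 mitotic genes were tested, so the rest entered these counts only through mouse 311. It lay below every sham mouse for 14 of 19 clock genes, 19 of 24 immediate early genes, 10 of 15 progenitor markers and 9 of 15 luminal mature markers, against 29.7% of all tested genes. Its values also entered the calls above. With the luminal mature level as a term, 1274 genes rose and 1126 fell (11.2% and 9.88%), of which 1189 and 1060 had changed in the same direction without it. Of the 15 markers in the term 6 rose and 2 fell in EP mice, so the term carries part of the treatment difference itself. Whether it follows cell content was not tested. With the term, replication had 27 of 30 higher and mitosis 33 of 33, and among immediate early genes 11 of 24 fell. Counts shrank in other lists, to 0 higher and 1 lower for Notch genes, 0 and 3 for luminal keratins and junctions, 1 and 2 for interferon response, 1 and 4 for the unfolded protein response, 2 and 2 for the prolactin axis, 0 and 1 for IGF genes, 3 and 2 for cholesterol genes, 3 and 2 for fatty acid genes, 2 and 4 for lysosome and involution genes and 1 and 4 for the shared glucocorticoid and progesterone targets. Of chromatin genes 1 fell, 0 basal, endothelial and fibroblast markers rose, while 8 ribosome biogenesis genes and 2 adipocyte markers rose and 5 luminal mature markers fell. The luminal mature markers make up the term, so in that fit rises of some are set off by falls of others. Aldh1a3, Cdh3, Cry1, Cxcl1, Dcn, Elf5, Fos, Hey1, Kit, Krt8, Muc1, Pgr, Tnfrsf11b, Trp63 and Vwf no longer passed with that term.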

How the data were processed

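RNA of sorted LP cells was sequenced with paired reads. The tools STAR, Cufflinks and DESeq2 and the build mm9 appear in the submitters' processing notes without versions or order. The deposited values were taken as FPKM from their scale, although the table's name calls them read counts. Being fractional, they were not put through a count test, and depth is unknown: no counting intervals or detection limits are given. Values summed to 333864 to 358375 in EP and 297710 to 333888 in sham LP libraries. Within each of 3 sets of libraries the deposited values of a gene were inferred to have been shifted and rescaled together. The 16 LP libraries shared a set with 6 MSC libraries, a set inferred from identical values and not from the labels.

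Of 22007 rows, 27 resembled dates and were left out. Values were rescaled by median-ratio factors (1.21 to 1.27 in EP and 0.960 to 1.08 in sham libraries), applied to the part above a gene's lowest value where at least 2 libraries shared that value, otherwise to the whole value. Genes needed a value of 1 or more, and a value above the shared lowest, in 3 LP libraries. A gene high only in EP libraries could pass this filter. All 16 LP libraries entered a fit of log2(value + 1) in limma 3.58.1 (R 4.3.3) with trend and robust estimation, tested on simulated data. Benjamini-Hochberg adjustment covered 11402 genes. Means are ± SD over 4 mice a group. Since EP and sham libraries came from different mice, p-values rest on the spread between mice. Errors of sorting or dissociation within a mouse were not measured.

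Members, gene lists, motifs and tests were chosen with earlier results of these data known. Genes named were the 12 with the smallest p and the 8 with the largest fold in each direction (log2 fold of at least 1, no overlap, mean of at least 5), the 4 smallest p of each list, a fixed set of hormone, milk and keratin genes, and other list members. Promoters came from RefSeq (GRCm38.p6), matched by symbol, the first window listed per gene. A few genes that these rules name are not reported here. Alternatives covered scaling, pseudocount, filter, fit and each mouse left out. The fit with the luminal mature marker level as a term, the rescaling above the lowest value of every gene and the subtraction of the shared lowest value were chosen after seeing the data.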

Additional observations from a re-analysis of the deposited data

Results flagged for a closer look

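A library was set apart where its gap to the nearest of the 4 libraries of its group, over their whole range, was above Dixon's critical value for 4 samples. Of 470 groups tested over the genes and lists described, 45 (9.57%) had such a library. Chance gives about 1 in 20 only for independent values with a normal spread. The FPKM values are skewed, some are tied at a gene's lowest value, and the genes move together. The 9.57% therefore cannot be read as an excess. EP mouse 311 accounted for 16 of these, more than any other mouse. Among EP mice, mouse 311 stood above the others in rescaled FPKM of Amtn at 3.18, Anxa8 at 11.9, Btn1a1 at 43.1, Ceacam10 at 8.71, Chil1 at 117, Cp at 94.1, Csn3 at 935, Fgfr1 at 20.7, Hey1 at 69.1, Igfbp5 at 258, Lalba at 167, Sfrp1 at 3.48, Slc3a2 at 129.7 and Spp1 at 534. In mean log2 level of lists, EP mouse 311 stood above the others for adipocyte markers at 3.94 and red blood cell markers at 5.25. Among EP mice, mouse 327 stood above the others in rescaled FPKM of Cry2 at 9.16, Ezh1 at 8.70, Upk3a at 2.36 and Vwf at 42.7. In mean log2 level of lists, EP mouse 327 stood above the others for skeletal muscle markers at 4.98. Among EP mice, mouse 327 stood below the others in rescaled FPKM of Ezh2 at 6.18. In mean log2 level of lists, EP mouse 327 stood below the others for chromatin at 2.86. Among EP mice, mouse 306 stood above the others in rescaled FPKM of Cdc20 at 27.4 and Znrf3 at 2.67. Among EP mice, mouse 306 stood below the others in rescaled FPKM of Hbegf at 11.98. Among EP mice, mouse 322 stood above the others in rescaled FPKM of Cldn7 at 256 and Krt8 at 1835. Among sham mice, mouse 301 stood above the others in rescaled FPKM of Aldh1a3 at 89.5, Aurkb at 0.647 and Trf at 11720.0. In mean log2 level of lists, sham mouse 301 stood above the others for serine and folate metabolism at 3.58 and skeletal muscle markers at 2.13. Among sham mice, mouse 301 stood below the others in rescaled FPKM of Cdkn2c at 3.78 and Ezh1 at 9.38. Among sham mice, mouse 305 stood above the others in rescaled FPKM of Ccna2 at 1.11, Ddit3 at 30.9, Dusp1 at 208 and Scd2 at 8.07. Among sham mice, mouse 310 stood above the others in rescaled FPKM of Dcn at 56.1 and Tnfrsf11b at 0.325. In mean log2 level of lists, sham mouse 310 stood above the others for fibroblast markers at 3.22. Among sham mice, mouse 326 stood above the others in rescaled FPKM of Klf4 at 29.3. Among sham mice, mouse 326 stood below the others in rescaled FPKM of Krt5 at 9.66 and Tnfsf11 at 0.886.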

How the results depend on the processing

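No paired analysis was possible because EP and sham libraries came from different mice. The count of genes called, 3690, was 2655 to 4985 under other scalings, pseudocounts, filters and fits, other than 700 when log2 folds had to exceed 0.5 (343 higher and 357 lower) and 2400 with the luminal mature level as a term (1274 higher and 1126 lower). Without rescaling 3945 were higher and 949 lower, 80.6% of calls higher against 50.2% with rescaling. Rescaling above the lowest value of every gene gave 2648 higher and 1423 lower (65.0% higher) and moved the median of all genes to 0.10. With a filter of at least 4 libraries at 5 or more, 1176 were higher, fewer genes being tested. Leaving out each mouse in turn gave 2824 to 4105 genes called, 1348 to 2107 higher and 1475 to 1998 lower, with the fewest genes called without EP mouse 306 and the most without EP mouse 311. Of 198 genes named and tested, 158 were called, and 117 of these kept call and direction under every alternative in which they were tested. The other 41 all lost the call when log2 folds had to exceed 0.5, 15 with the luminal mature level as a term, 8 with only EP and sham libraries (Cdh3, Cited1, Elf5, Kit, Pgr, Tnfrsf11b, Trp63 and Vwf), 7 under quantile normalization and 5 without rescaling. With the luminal mature level as a term Prlr, itself a marker averaged in that term, reversed to -0.69. The cause of these moves was not tested.

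The values cannot show low levels: with no counts, a gene at its lowest value in the set may still be expressed, and with 4 mice a group a log2 fold of 1.29 (Wnt4) did not pass the test.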
